A study of Mus musculus with 11 samples.

Results

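The astrocyte and glial precursor genes are 32 genes chosen by name: markers of mature astrocytes, of their junctions, transporters and metabolism, of neural and glial precursors, and of reactive glia. All 32 were found, by gene symbol, among the 50686 genes counted in this RNA sequencing study of GL261 tumours, experimental gliomas that form in the brain of mice given GL261 cells, a mouse glioma line. The Cx3cr1-Rheb1 Δ/Δ mice carry a loxP-flanked Rheb1 and a tamoxifen-activated Cre driven from the Cx3cr1 locus, so that Rheb1, the activator of the mTORC1 kinase complex, is deleted in microglia and other cells that use this promoter. The Rheb1 fl/fl controls carry the loxP-flanked gene without Cre and received tamoxifen too. Both genotypes are on C57BL/6, received tamoxifen 3 weeks before GL261 injection at 6 weeks of age, and were sampled about 3 weeks after the tumours were started. Bulk tumours gave 6 libraries, 3 from Cx3cr1-Rheb1 Δ/Δ mice (replicates 26, 36 and 37) and 3 from Rheb1 fl/fl mice (replicates 35, 38 and 110), from RNA of tissue scraped off formalin-fixed slides. Sorted tumour-associated microglia (TAM-MG; live CD11b+ CD45low cells) gave 5 libraries, 3 from Cx3cr1-Rheb1 Δ/Δ mice (replicates 54, 63 and 65) and 2 from Rheb1 fl/fl mice (replicates 74 and 78). Neither the injected tumour cells nor the astrocytes are the target of the Cre. The comparison therefore asks what astrocyte and precursor transcripts did in tumours whose microglia had lost Rheb1, and the sorted cells give the level of the same transcripts in TAM-MG.

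Astrocytes clear glutamate and potassium from around synapses, supply neurons with lactate and glutamine, line blood vessels with water-channel-rich endfeet and are joined into networks by gap junctions. Around a glioma they become reactive: they enlarge, lay down intermediate filaments and secrete proteins such as lipocalin 2. Neural stem cells and glial precursors share part of this program and add genes such as nestin and brain lipid-binding protein, which glioma cells also use. In bulk tissue, fewer cells of a type and less RNA per cell cannot be told apart.

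Total counts lay between 14940787 and 19798998 in the Cx3cr1-Rheb1 Δ/Δ and between 15606224 and 21991348 in the Rheb1 fl/fl bulk libraries, and between 20765767 and 29947977 in TAM-MG. Mitochondrial genes took 6.09 to 10.3% of counts in Cx3cr1-Rheb1 Δ/Δ bulk tumours and 5.88 to 7.07% in Rheb1 fl/fl bulk tumours. Replicate 35, a Rheb1 fl/fl bulk tumour, had 10643 counts of Xist and 0 of the Y-linked Ddx3y, whereas the other libraries had at most 5 counts of Xist. CPM are read counts scaled to the library total, adjusted by edgeR's TMM factors. The 15 markers of microglia and macrophages summed to 842 to 1751 CPM in Cx3cr1-Rheb1 Δ/Δ and to 2788 to 4940 CPM in Rheb1 fl/fl bulk tumours. Rheb itself had 67.8, 70.0 and 71.2 CPM in Cx3cr1-Rheb1 Δ/Δ TAM-MG, against 86.5 and 164 CPM in Rheb1 fl/fl TAM-MG, with an adjusted p of 0.552 in edgeR's quasi-likelihood test. Counts per gene do not separate the deleted exon from the rest of the transcript.

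The Cx3cr1-Rheb1 Δ/Δ replicate 37 stood apart from the other 5 bulk tumours for these genes. It had the lowest CPM of the 6 libraries for 20 of the 32 members, and for 19 of the 25 that serve astrocyte transport, junctions, metabolism, signalling or cytoskeleton. Of all 17028 genes tested in bulk tumours, 16.9% were lowest in that library. Its median member lay at −1.26 on the log2 scale relative to the Rheb1 fl/fl mean, against 0.25 in replicate 26 and 0.46 in replicate 36. The 32 members summed to 7752, 10556 and 4166 CPM in Cx3cr1-Rheb1 Δ/Δ replicates 26, 36 and 37, against 7128, 7463 and 9356 CPM in Rheb1 fl/fl replicates 35, 38 and 110. Replicate 36 was the highest library for 17 members, so the 3 Cx3cr1-Rheb1 Δ/Δ tumours enclosed the whole Rheb1 fl/fl range. Markers of neurons (14 genes, none at 0) moved alike, with 5761, 6084 and 2304 CPM in Cx3cr1-Rheb1 Δ/Δ replicates 26, 36 and 37, against 3263 to 4222 CPM in Rheb1 fl/fl tumours. Markers of proliferation (10 genes) went the other way, with 1101, 455 and 1793 CPM in those 3 tumours, against 921 to 1323 CPM in Rheb1 fl/fl tumours. The part of these cell types in the result was not tested. Results below are also given without replicate 37 where that changes them.

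**Figure D1:**
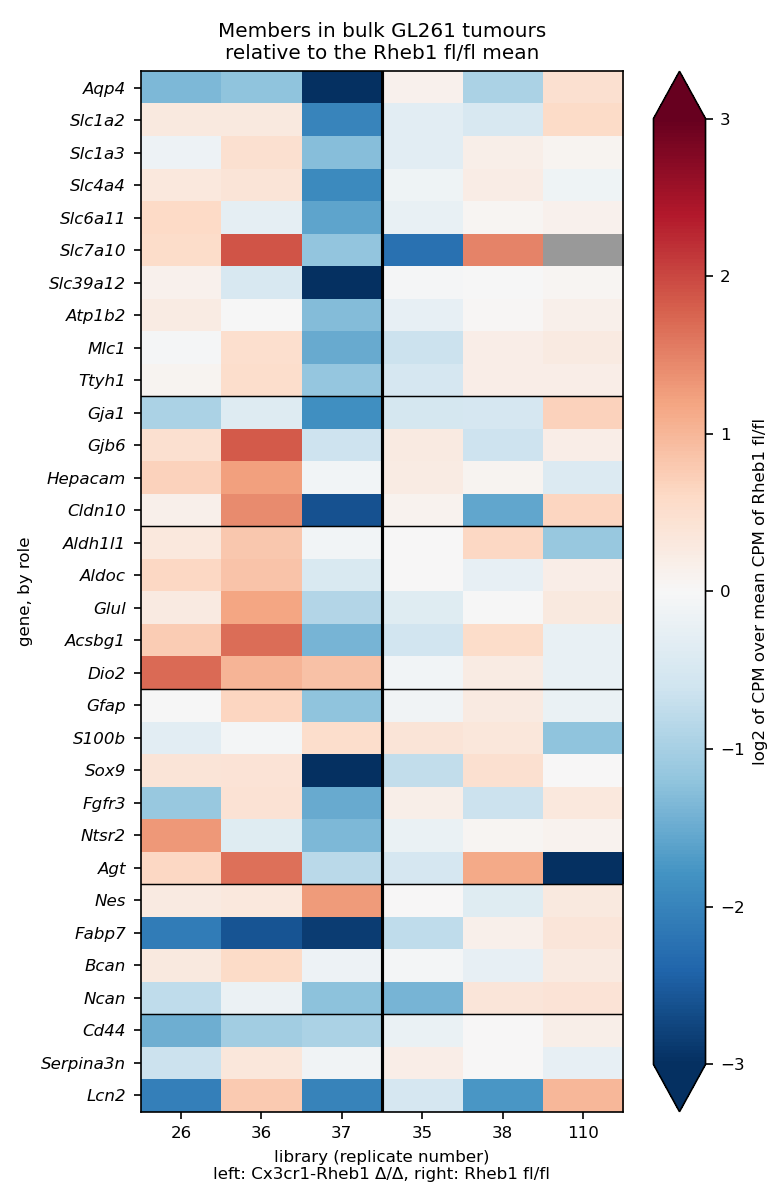
Heat map of the 32 members (a line each, grouped by role) in the 6 bulk tumours; colour is the log2 ratio of CPM to the mean CPM of the Rheb1 fl/fl tumours, from −3 (blue) to 3 (red), with grey for a library at 0 counts. Replicate 37 is the bluest column, lowest of all libraries for 20 of 32 members. The Fabp7, Cd44, Aqp4, Gja1 and Ncan lines are below 0 in all 3 Cx3cr1-Rheb1 Δ/Δ tumours.

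Between the genotypes, no member of the 32 passed the threshold in bulk tumours (an adjusted p under 0.05 over all genes tested and a change of at least 1.5-fold, in edgeR's quasi-likelihood test), and neither did any of the 17028 genes (0.0% called in either direction). At an unadjusted p under 0.05, 3 members were lower (Fabp7, Cd44 and Aqp4; background 5.19% of all genes) and 0 were higher (background 3.82%). edgeR's likelihood ratio test, which the study used, called 2 members lower, Fabp7 and Cd44 (background 1.53%), and 0 higher (background 0.722%), and DESeq2 called the same pair (background 3.1% lower and 1.69% higher). The log2 fold change was above 0 for 14 members (background 50.2%) and below 0 for 18, with a median of −0.05 against 0.00 over all genes. Without replicate 37, 22 members were above 0 and their median was 0.31, against −0.05 over all genes. At an unadjusted p under 0.05, 5 members were then higher (Acsbg1, Aldoc, Dio2, Gjb6 and Glul, background 5.27%), and the same 3 were lower (background 7.69%). Replicate 37 was singled out by these same members, so higher values without it follow from that choice. Without replicate 36, the highest library for 17 members, 0 members were higher (background 3.23%). In that fit 6 members were lower (Aqp4, Cd44, Fabp7, Fgfr3, Gja1 and Lcn2, background 6.39%). Groups without overlap came at about the share of all genes on the lower side, and below it on the higher side. Of the 32 members, 3 had all Cx3cr1-Rheb1 Δ/Δ libraries below all Rheb1 fl/fl libraries (background 9.23%). In 1 member, Dio2, they were all above (background 7.82%).

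Among the precursor and matrix genes, Fabp7 had the largest difference of all members. Fabp7 encodes brain lipid-binding protein, a fatty acid carrier of radial glia and astrocyte precursors (chromosome 10, 57784881 to 57788450, plus strand, GRCm38). It had 25.4, 18.2 and 15.2 CPM in Cx3cr1-Rheb1 Δ/Δ tumours, against 63.5, 121 and 141 CPM in Rheb1 fl/fl tumours. All 3 Cx3cr1-Rheb1 Δ/Δ tumours were thus low, close to each other and below every Rheb1 fl/fl tumour. The means were 19.6 ± 5.24 CPM in Cx3cr1-Rheb1 Δ/Δ and 108 ± 40.1 CPM in Rheb1 fl/fl tumours (SD, n = 3 each), a log2 fold change of −2.47 (SE 0.43), or 5.54-fold lower, with adjusted p values of 0.123 by quasi-likelihood, 0.000128 by likelihood ratio and 6.48e-06 by DESeq2. Leaving out any library kept the log2 fold change between −2.77 and −2.26, and TPM (the authors' estimate of transcript abundance per length) gave 23.9, 22.0 and 14.5 in Cx3cr1-Rheb1 Δ/Δ tumours, against 68.0, 121 and 120 in Rheb1 fl/fl tumours, without overlap. The quasi-likelihood test called Fabp7 lower when genes with low counts were kept (adjusted p 0.0125) or when a gene needed 10 counts or more in each library to be tested (adjusted p 0.0194).

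The other precursor and matrix genes overlapped between the genotypes. Nes, which encodes the intermediate filament nestin of neural progenitors and glioma cells, had 87.0, 90.3 and 174 CPM in Cx3cr1-Rheb1 Δ/Δ tumours, against 72.5, 56.0 and 88.4 CPM in Rheb1 fl/fl tumours (log2 fold change 0.70, SE 0.37, adjusted p 0.634 by edgeR's quasi-likelihood test). Its high value came from replicate 37, the tumour in which most members were lowest. Bcan encodes brevican, a proteoglycan of the extracellular matrix of the brain, and had 133, 161 and 98.3 CPM in Cx3cr1-Rheb1 Δ/Δ tumours, against 103, 91.7 and 130 CPM in Rheb1 fl/fl tumours (0.27, SE 0.32, adjusted p 0.857). Ncan encodes neurocan, its relative, and had 65.5, 98.5 and 47.1 CPM in Cx3cr1-Rheb1 Δ/Δ tumours, against 42.3, 143 and 147 CPM in Rheb1 fl/fl tumours (−0.65, SE 0.48, adjusted p 0.736). The Ncan overlap came from Rheb1 fl/fl replicate 35 alone. Without that library Ncan was lower at an unadjusted p under 0.05 in the same test (background 4.36%). Nes and Bcan are neighbours on chromosome 3, with 7080 bases between them.

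Of the reactive glia genes, Cd44 alone separated the genotypes. CD44 is the hyaluronan receptor, found on reactive astrocytes, glioma cells and leukocytes (chromosome 2, 102811141 to 102901665, minus strand). It had 123, 164 and 176 CPM in Cx3cr1-Rheb1 Δ/Δ tumours, against 292, 338 and 381 CPM in Rheb1 fl/fl tumours. The groups did not overlap, and here replicate 37 was the highest of its genotype. The means were 154 ± 27.7 CPM in Cx3cr1-Rheb1 Δ/Δ and 337 ± 44.5 CPM in Rheb1 fl/fl tumours (SD, n = 3 each), a log2 fold change of −1.13 (SE 0.28), 2.19-fold lower, with adjusted p values of 0.206 by quasi-likelihood, 0.0358 by likelihood ratio and 0.00177 by DESeq2. Leaving out each library moved it between −1.25 and −0.99. On the TPM scale the groups overlapped, with 13.2, 20.7 and 19.8 in Cx3cr1-Rheb1 Δ/Δ tumours, against 17.7, 40.0 and 30.4 in Rheb1 fl/fl tumours. The microglia and macrophage markers moved with this gene, as all 15 had negative log2 fold changes and 12 of them did not overlap between the genotypes (background 9.23% of all genes with all Cx3cr1-Rheb1 Δ/Δ libraries below). Their part in the Cd44 difference was not tested.

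Serpina3n, a secreted serine protease inhibitor induced in reactive astrocytes, had 886, 1751 and 1286 CPM in Cx3cr1-Rheb1 Δ/Δ tumours, against 1590, 1383 and 1150 CPM in Rheb1 fl/fl tumours (log2 fold change −0.07, SE 0.32, adjusted p 0.971 by edgeR's quasi-likelihood test). It belongs to a family of near-identical Serpina3 genes, so that its reads may be split among copies. Lcn2, the iron-carrier-binding lipocalin 2 of reactive astrocytes, had 55.0, 393 and 57.1 CPM in Cx3cr1-Rheb1 Δ/Δ tumours, against 161, 68.0 and 458 CPM in Rheb1 fl/fl tumours (−0.44, SE 0.80, adjusted p 0.916). Both genes overlapped between the genotypes, and Lcn2 varied more within each genotype than between them.

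**Figure D2:**
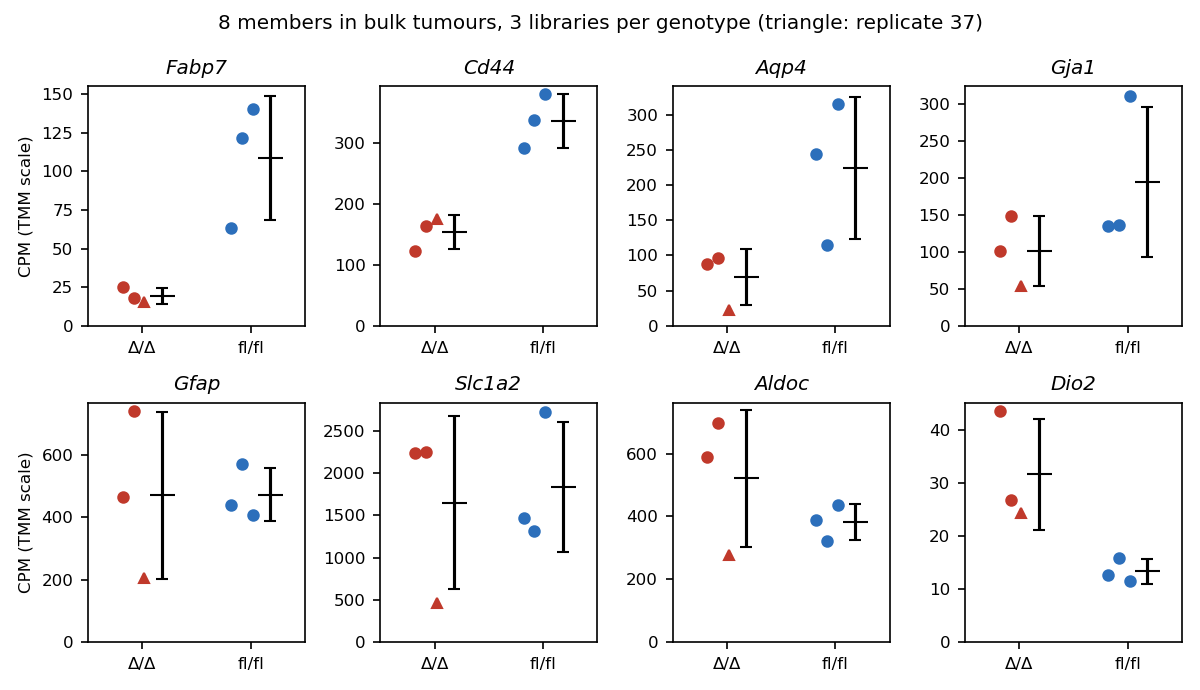
CPM of 8 members in bulk tumours, each point a library (red Cx3cr1-Rheb1 Δ/Δ on the left, blue Rheb1 fl/fl on the right, triangle replicate 37), with the mean and SD beside them. Fabp7, Cd44 and Aqp4 show no overlap with all Cx3cr1-Rheb1 Δ/Δ libraries below, Dio2 none with all above, and the triangle is the lowest point for Gja1, Gfap, Slc1a2 and Aldoc.

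The windows just upstream of the start sites of Fabp7 and Cd44, the pair called by the likelihood ratio test, and of Gfap, whose log2 fold change was nearest to 0, are shown for context (RefSeq annotation of GRCm38.p6, 250 bases before the start, at chr10:57784673-57784922 on the plus strand, chr2:102901666-102901915 on the minus strand and chr11:102897201-102897450 on the minus strand). The start sites are those of RefSeq, and for Fabp7 and Gfap they differ from the gene positions printed in this text. By those positions, the Gfap window lies inside the gene and the Fabp7 window runs past the gene start. Capitals mark matches, on either strand, to TGGGAA, the core letters of the binding motif of RBPJ, the DNA-binding factor of Notch signalling.
Fabp7: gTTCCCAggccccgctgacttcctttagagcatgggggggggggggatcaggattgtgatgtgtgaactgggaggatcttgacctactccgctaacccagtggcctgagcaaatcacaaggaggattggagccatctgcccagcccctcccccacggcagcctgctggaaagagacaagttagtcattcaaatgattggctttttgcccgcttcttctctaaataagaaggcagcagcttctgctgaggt
Cd44: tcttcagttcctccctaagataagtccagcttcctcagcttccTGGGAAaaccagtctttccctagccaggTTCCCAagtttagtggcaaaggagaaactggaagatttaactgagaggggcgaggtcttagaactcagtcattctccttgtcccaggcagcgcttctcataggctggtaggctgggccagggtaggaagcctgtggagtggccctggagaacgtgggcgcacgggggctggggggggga
Gfap: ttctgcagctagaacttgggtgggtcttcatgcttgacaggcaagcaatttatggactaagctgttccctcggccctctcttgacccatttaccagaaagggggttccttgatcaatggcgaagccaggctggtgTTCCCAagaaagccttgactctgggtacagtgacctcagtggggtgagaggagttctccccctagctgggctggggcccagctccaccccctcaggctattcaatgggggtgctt
The match lay at −249 to −244 in Fabp7, at −207 to −202 and −179 to −174 in Cd44, and at −115 to −110 in Gfap, counted from the start site. Of the 29 members with such a window, 12 (41.4%) held this motif, against 21.5% of all 27025 genes. The STAT motif TTCNNNGAA was in 4 members (13.8%, against 7.18% of genes), the AP-1 motif TGANTCA in 1 (3.45%, against 6.87%), and the NFI motif TTGGCA in 5 (17.2%, against 12.5%). A match is a description of letters and says nothing of binding.

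Of the 10 members for membrane transport and channels, 9 had a negative log2 fold change and 1 a positive one, with a median of −0.15. Most of these signs depended on replicate 37, where all 10 lay below the Rheb1 fl/fl mean. Without that library Aqp4 stayed negative (log2 fold change −1.28), as did Slc39a12. Relative to that mean, their median was −1.54 on the log2 scale in replicate 37, against 0.18 in replicate 26 and 0.34 in replicate 36. Aqp4 encodes aquaporin 4, the water channel of astrocyte endfeet (chromosome 18, 15389496 to 15410982, minus strand), and had 87.6, 97.1 and 23.1 CPM in Cx3cr1-Rheb1 Δ/Δ tumours, against 244, 115 and 314 CPM in Rheb1 fl/fl tumours. The groups did not overlap in CPM, by a narrow margin between replicates 36 and 38, and did overlap in TPM (8.12, 12.3 and 2.34 in Cx3cr1-Rheb1 Δ/Δ, against 24.5, 11.3 and 25.6 in Rheb1 fl/fl tumours). The log2 fold change was −1.70 (SE 0.53), with means of 69.3 ± 40.3 CPM in Cx3cr1-Rheb1 Δ/Δ and 225 ± 101 CPM in Rheb1 fl/fl tumours (SD, n = 3 each) and adjusted p values of 0.309 by quasi-likelihood, 0.0776 by likelihood ratio and 0.0694 by DESeq2. It stayed between −2.04 and −1.28 without each library.

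The glutamate transporters, which carry synaptic glutamate into astrocytes, had log2 fold changes near 0. Slc1a2 (GLT-1) had 2236, 2249 and 468 CPM in Cx3cr1-Rheb1 Δ/Δ tumours, against 1465, 1319 and 2721 CPM in Rheb1 fl/fl tumours (log2 fold change −0.15, SE 0.53, adjusted p 0.962 by edgeR's quasi-likelihood test). Slc1a3 (GLAST) had 513, 793 and 234 CPM in Cx3cr1-Rheb1 Δ/Δ tumours, against 455, 645 and 607 CPM in Rheb1 fl/fl tumours (−0.15, SE 0.41, adjusted p 0.952). For both, replicate 37 was lowest and the other 2 Cx3cr1-Rheb1 Δ/Δ tumours lay inside or above the Rheb1 fl/fl range. Without it the log2 fold changes were 0.29 for Slc1a2 and 0.20 for Slc1a3. Slc1a2 and Cd44 are neighbours on chromosome 2, with 20357 bases between them, with log2 fold changes of −0.15 and −1.13.

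The remaining transport members had no difference beyond the spread of the tumours. The log2 fold changes were −0.09 for the bicarbonate transporter Slc4a4, −0.17 for the GABA transporter Slc6a11, 0.88 for the neutral amino acid transporter Slc7a10, −0.73 for the zinc transporter Slc39a12, −0.21 for the sodium pump subunit Atp1b2, −0.12 for the membrane protein Mlc1 and −0.02 for Ttyh1, a chloride channel family member. Their adjusted p values lay between 0.901 and 0.995 in edgeR's quasi-likelihood test. Slc7a10 was near the floor, at 0.58 to 4.79 CPM in Cx3cr1-Rheb1 Δ/Δ and 0 to 3.64 CPM in Rheb1 fl/fl tumours. Slc39a12 had 24.5, 16.2 and 0.10 CPM in Cx3cr1-Rheb1 Δ/Δ tumours, against 21.9, 22.4 and 23.3 CPM in Rheb1 fl/fl tumours, and its log2 fold change was −0.14 without replicate 37. TPM gave a positive value for Slc39a12 (0.38 on the log2(TPM + 1) scale).

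Junction and adhesion members pointed in both directions. Gja1 encodes connexin 43, the main gap junction protein of astrocytes, and had 100.5, 148 and 54.3 CPM in Cx3cr1-Rheb1 Δ/Δ tumours, against 135, 136 and 311 CPM in Rheb1 fl/fl tumours (log2 fold change −0.94, SE 0.45, adjusted p 0.579 by edgeR's quasi-likelihood test). Replicate 36 lay above 2 of the Rheb1 fl/fl tumours. Without Rheb1 fl/fl replicate 110, its highest library, the log2 fold change was −0.44. Other leave-outs went the other way. Gja1 was lower at an unadjusted p under 0.05 in that test without Cx3cr1-Rheb1 Δ/Δ replicate 36 (background 6.39%). The same held without Rheb1 fl/fl replicate 35 (background 4.36%) or 38 (background 4.91%). The other gap junction gene, Gjb6 (connexin 30), had a log2 fold change of 0.91, the adhesion gene Hepacam (GlialCAM) 0.71 and the tight junction gene Cldn10 0.40, with adjusted p values of 0.713, 0.713 and 0.940.

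All 5 metabolism members had a positive log2 fold change, with a median of 0.44, although none passed the threshold. Dio2 encodes the deiodinase that makes active thyroid hormone in astrocytes, and had 43.5, 26.8 and 24.4 CPM in Cx3cr1-Rheb1 Δ/Δ tumours, against 12.6, 15.9 and 11.5 CPM in Rheb1 fl/fl tumours. The groups did not overlap, replicate 37 included (means 31.6 ± 10.4 CPM in Cx3cr1-Rheb1 Δ/Δ and 13.3 ± 2.30 CPM in Rheb1 fl/fl tumours, SD, n = 3 each), and the log2 fold change was 1.24 (SE 0.57) with an adjusted p of 0.559 by quasi-likelihood and 0.0928 by DESeq2. An antisense gene, Gm26512, overlaps Dio2, and without strand information their reads cannot be told apart. Exons of other genes also overlap those of Slc1a2, Slc7a10, Ttyh1, Aldh1l1, Glul and Fgfr3. Aldoc, the astrocyte aldolase of glycolysis, had 588, 698 and 278 CPM in Cx3cr1-Rheb1 Δ/Δ tumours, against 389, 323 and 437 CPM in Rheb1 fl/fl tumours (0.44, SE 0.36, adjusted p 0.767). Aldh1l1, the folate enzyme used as a pan-astrocyte marker, had 39.0, 55.0 and 29.5 CPM in Cx3cr1-Rheb1 Δ/Δ tumours, against 31.3, 48.2 and 14.2 CPM in Rheb1 fl/fl tumours (0.40, SE 0.54, adjusted p 0.880). Glul (glutamine synthetase) and Acsbg1 (a fatty acid activating enzyme) had log2 fold changes of 0.42 and 0.82. Without replicate 37 the values for Aldoc, Glul and Acsbg1 were 0.75, 0.80 and 1.30. Relative to the Rheb1 fl/fl mean, they lay highest in replicate 36, at 0.87, 1.19 and 1.69 on the log2 scale. They lay at 0.62, 0.26 and 0.76 in replicate 26 and at −0.46, −0.88 and −1.39 in replicate 37. The sign of Glul changed among the fits with a library left out.

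Of the 6 members for signalling, regulation and cytoskeleton, 3 were above and 3 below 0, with a median of 0.04. Gfap encodes the intermediate filament by which reactive astrocytes are recognised (chromosome 11, 102887336 to 102900912, minus strand) and had 466, 741 and 206 CPM in Cx3cr1-Rheb1 Δ/Δ tumours, against 441, 570 and 409 CPM in Rheb1 fl/fl tumours. The Cx3cr1-Rheb1 Δ/Δ tumours spread on either side of the Rheb1 fl/fl range, with a log2 fold change of −0.01 (SE 0.41, adjusted p 0.9996 by edgeR's quasi-likelihood test; means 471 ± 268 CPM in Cx3cr1-Rheb1 Δ/Δ and 474 ± 85.1 CPM in Rheb1 fl/fl tumours, SD, n = 3 each). S100b, a calcium-binding protein of astrocytes, had 141, 170 and 255 CPM in Cx3cr1-Rheb1 Δ/Δ tumours, against 230, 223 and 76.1 CPM in Rheb1 fl/fl tumours (0.10, SE 0.42, adjusted p 0.971). S100b and Nes were the members that were highest in replicate 37. The log2 fold changes were −0.12 for Sox9, the transcription factor of gliogenesis, −0.47 for the growth factor receptor Fgfr3, 0.28 for the neurotensin receptor Ntsr2 and 0.81 for Agt, the angiotensin precursor. Sox9 had 156, 157 and 14.8 CPM in Cx3cr1-Rheb1 Δ/Δ tumours, against 71.6, 165 and 119 CPM in Rheb1 fl/fl tumours, again with replicate 37 lowest.

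**Figure D3:**
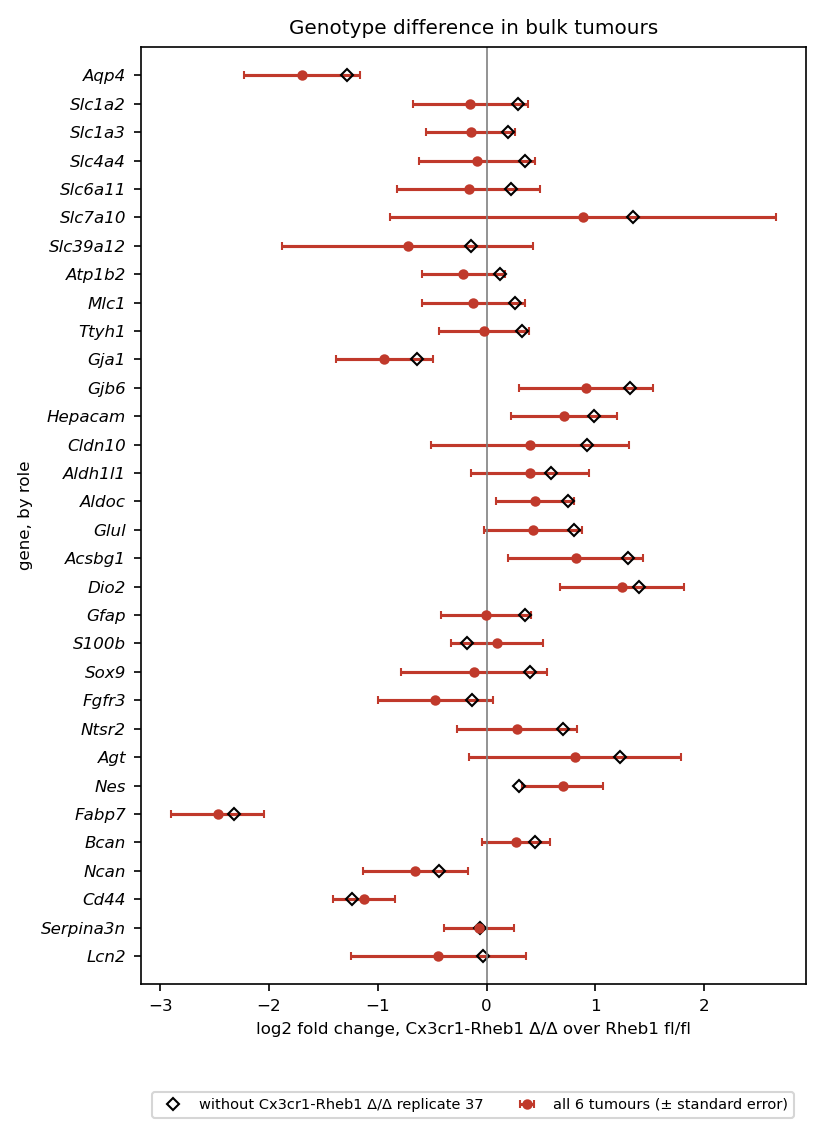
Log2 fold change of Cx3cr1-Rheb1 Δ/Δ over Rheb1 fl/fl in bulk tumours for the 32 members (red points, bars ± SE, 3 tumours per genotype), with the value without replicate 37 as open diamonds. Fabp7 at −2.47, Aqp4 at −1.70 and Cd44 at −1.13 lie left of 0 under both, while the median of the members is −0.05 with replicate 37 and 0.31 without it.

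On the per-length TPM scale, the members spanned a wide range of levels in bulk tumours. The reactive gene Serpina3n had the highest mean TPM of the members in each genotype, 562 in Cx3cr1-Rheb1 Δ/Δ tumours and 720 in Rheb1 fl/fl tumours. Lcn2, Gfap, Aldoc and Glul came next in each genotype, with mean TPM of 190, 178, 195 and 199 in Cx3cr1-Rheb1 Δ/Δ tumours and 385, 199, 181 and 154 in Rheb1 fl/fl tumours. Fabp7 had a mean TPM of 20.2 in Cx3cr1-Rheb1 Δ/Δ tumours and 103 in Rheb1 fl/fl tumours. Dio2, Slc7a10, Slc39a12 and Slc4a4 were lowest, at 1.0 to 4.8 in either genotype. All defining astrocyte markers (Aqp4, Gfap, Aldh1l1, Slc1a2, Slc1a3, Gja1, Aldoc and S100b) had counts in every bulk tumour.

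Related genes outside the 32 were counted in the same way. Of 33 other astrocyte genes, 20 had a positive log2 fold change and 13 a negative one (median 0.14), and at an unadjusted p under 0.05, 3 were higher (background 3.82%) and 3 lower (background 5.19%) in edgeR's quasi-likelihood test. The metallothioneins Mt1 and Mt2, metal-binding stress proteins of astrocytes, had log2 fold changes of 1.70 and 1.78 (adjusted p 0.186 and 0.208) and were called higher by the likelihood ratio test and DESeq2. Ppp1r3c, a glycogen regulator, and Lxn, a carboxypeptidase inhibitor, had −1.56 and −1.34. Of 17 other glial precursor and stem cell genes, 6 were positive and 11 negative (median −0.16). The 11 genes of the A1 reactive astrocyte state had 9 negative values (median −0.97), and at an unadjusted p under 0.05, 6 were lower (background 5.19%) and 1 was higher (background 3.82%). The smallest p values among them were for Iigp1 (−2.91), an interferon-induced GTPase, and Gbp2 (−1.71), another, while Fkbp5 had 1.81. Of 11 tested genes of the A2 state, 9 were negative (median −0.24), led by Tm4sf1 (−1.74), and of 8 tested genes common to reactive astrocytes, 5 were negative (median −0.23), led by the chemokine Cxcl10 (−1.64). Many of these reactive genes are also used by microglia, macrophages and endothelial cells: the A1 genes summed to 6202 to 9832 CPM in Cx3cr1-Rheb1 Δ/Δ TAM-MG and 6809 to 8198 CPM in Rheb1 fl/fl TAM-MG.

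**Figure D4:**
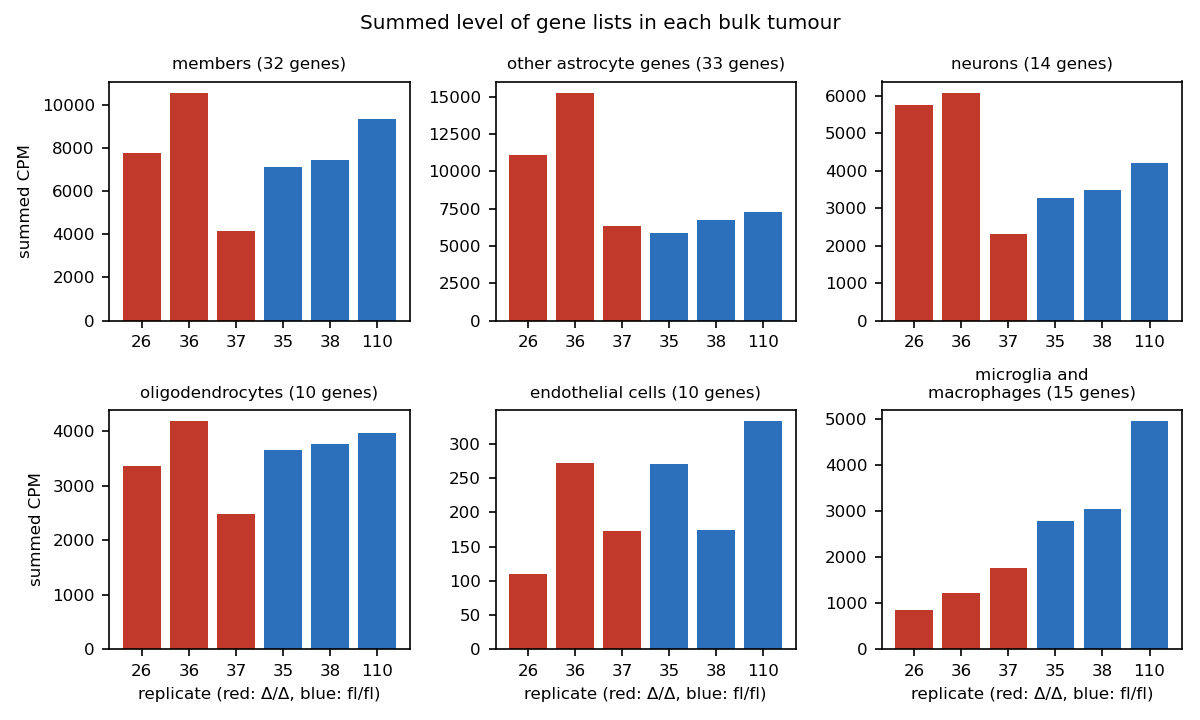
Summed CPM of 6 gene lists in each bulk tumour, Cx3cr1-Rheb1 Δ/Δ in red on the left and Rheb1 fl/fl in blue on the right; each bar is a library. The members and the neuron and oligodendrocyte markers are lowest in replicate 37 (4166, 2304 and 2472 CPM). The 33 other astrocyte genes are not: they have 11079, 15243 and 6357 CPM in replicates 26, 36 and 37, against 5850 to 7271 CPM in Rheb1 fl/fl tumours. The microglia and macrophage markers are lower in all 3 Cx3cr1-Rheb1 Δ/Δ tumours (842 to 1751 CPM) than in any Rheb1 fl/fl tumour (2788 to 4940 CPM).

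Sorted TAM-MG held far less of most members than bulk tumours. Across genotypes, 26 of the 32 members were lower in TAM-MG than in bulk tumours and 1 was higher, by an adjusted p under 0.05 and at least 1.5-fold in edgeR's quasi-likelihood test (background 32.4% lower and 20.5% higher). The median log2 fold change was −3.73 over the members and −0.89 over all 21342 genes tested, and for the 14 neuron markers it was −7.06. Hepacam had 0 counts in all 5 TAM-MG libraries and 3882 counts over the bulk tumours, and was at least 1028-fold lower (floor of 3 counts over the group). Aqp4 had a median TPM of 0.18 in TAM-MG and 11.8 in bulk tumours, and Mlc1 had 0.07 in TAM-MG and 49.5 in bulk tumours. Sorted cells and fixed tissue were prepared differently, so that cell type and preparation cannot be told apart in these values.

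A few members stayed high in the sorted cells. Glul, whose product makes glutamine from glutamate, was the member called higher, with a median TPM of 854 in TAM-MG and 164 in bulk tumours (log2 fold change 1.90, SE 0.32, adjusted p 0.00067). Slc39a12 had a median TPM of 7.81 in TAM-MG and 0.92 in bulk tumours (0.92, SE 0.82, adjusted p 0.362). The smallest called decreases were those of Aldoc (median TPM 52.9 in TAM-MG and 203 in bulk tumours, log2 fold change −1.35), Slc1a3 (43.8 in TAM-MG and 96.8 in bulk tumours, −1.39) and S100b (26.1 in TAM-MG and 119 in bulk tumours, −1.77). Cd44 had 7.43 in TAM-MG and 20.2 in bulk tumours (−2.29), Gfap 18.5 in TAM-MG and 209 in bulk tumours (−2.63), and Fabp7 1.51 in TAM-MG and 45.9 in bulk tumours (−8.61). Slc7a10, Gjb6, Aldh1l1, Ncan and Slc39a12 were not called in either direction. Counts of the other members were low and uneven in TAM-MG: 3 to 9 of the 32 members were at 0 in each Cx3cr1-Rheb1 Δ/Δ library and 13 and 8 in the Rheb1 fl/fl libraries. Without Rheb1 fl/fl replicate 78 the median was −6.31, and it was −2.53 when a gene needed 10 counts or more in each library.

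**Figure D5:**
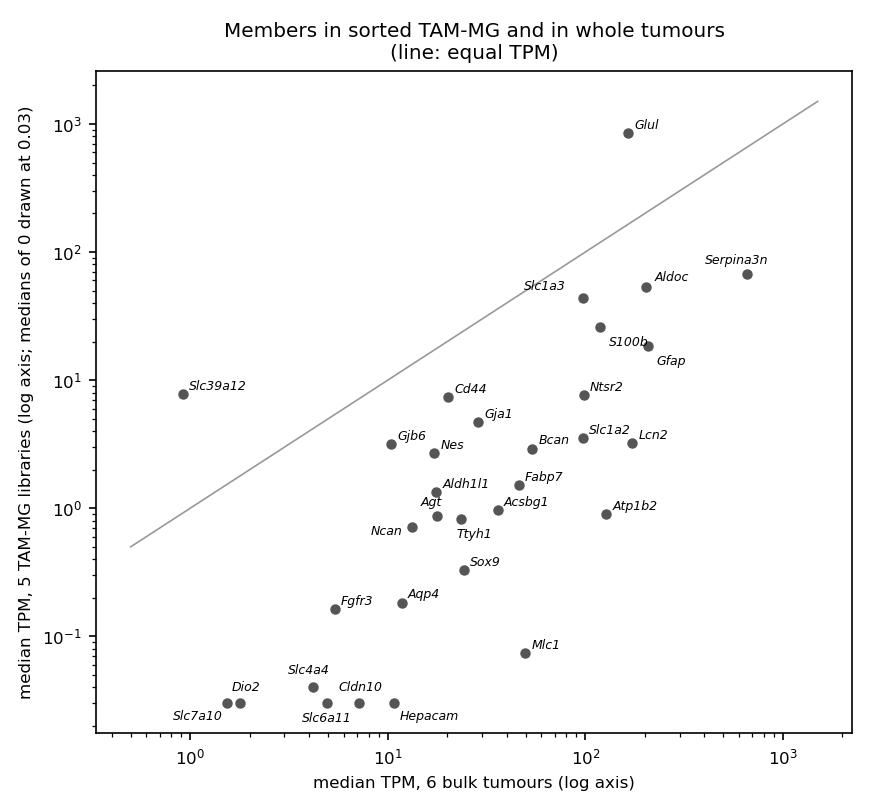
Median TPM of each member in the 5 TAM-MG libraries (vertical, log axis, medians of 0 drawn at 0.03) against the 6 bulk tumours (horizontal, log axis), both genotypes together, with a line of equal TPM. Glul (854 against 164) and Slc39a12 (7.81 against 0.92) lie above the line and the others below it.

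Between the genotypes of TAM-MG, 28 members had enough counts to be tested (all but Slc6a11, Hepacam, Cldn10 and Dio2), and none passed the threshold by the quasi-likelihood test, as for all 14872 genes tested (0.0% called). At an unadjusted p under 0.05, Aqp4 and Fabp7 were higher (2 members, background 5.47%) and Slc4a4 lower (1 member, background 2.3%). Aqp4 had 4.99, 0.77 and 2.90 CPM in Cx3cr1-Rheb1 Δ/Δ TAM-MG, against 0 in both Rheb1 fl/fl libraries, at least 47.7-fold higher (floor of 3 counts over the group, counting error only). TPM gave Aqp4 1.06, 0.18 and 0.63 in Cx3cr1-Rheb1 Δ/Δ, against 0 and 0.017 in Rheb1 fl/fl TAM-MG. The Aqp4 bound thus holds for the counts only. Fabp7 had 0.36, 0.998 and 2.41 CPM in Cx3cr1-Rheb1 Δ/Δ TAM-MG, against 0 in both Rheb1 fl/fl libraries, at least 21.9-fold higher. Slc4a4 had 0 counts in all Cx3cr1-Rheb1 Δ/Δ TAM-MG, against 0.50 and 5.53 CPM in Rheb1 fl/fl TAM-MG. TPM gave it 0.0093, 0.0098 and 0.040 in Cx3cr1-Rheb1 Δ/Δ, against 0.195 and 0.675 in Rheb1 fl/fl TAM-MG. Its bound of at least 58.2-fold lower holds for the counts only. The adjusted p values were 0.502, 0.506 and 0.507 in edgeR's quasi-likelihood test, the likelihood ratio test called 1 member lower, Slc4a4 (0.0440; background 0.471% lower and 1.18% higher), and DESeq2 called 1 higher, Aqp4 (0.00957; background 4.78% higher and 0.919% lower). In bulk tumours Aqp4 and Fabp7 had 69.3 and 19.6 CPM on average in Cx3cr1-Rheb1 Δ/Δ and 225 and 108 CPM in Rheb1 fl/fl tumours. Slc6a11, Slc7a10 and Dio2 also had 0 counts in both Rheb1 fl/fl TAM-MG libraries, but at least 1 Cx3cr1-Rheb1 Δ/Δ library was at 0 too.

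None of the more abundant members was called between the genotypes of TAM-MG. Glul had 1171, 1481 and 1283 CPM in Cx3cr1-Rheb1 Δ/Δ TAM-MG, against 1698 and 1537 CPM in Rheb1 fl/fl TAM-MG (log2 fold change −0.30, SE 0.25, adjusted p 0.844 by edgeR's quasi-likelihood test). Slc1a3 had 112, 159 and 189 CPM in Cx3cr1-Rheb1 Δ/Δ TAM-MG, against 102 and 149 CPM in Rheb1 fl/fl TAM-MG (0.29, SE 0.34, adjusted p 0.927). Cd44 had 36.1, 10.2 and 24.8 CPM in Cx3cr1-Rheb1 Δ/Δ TAM-MG, against 39.1 and 43.8 CPM in Rheb1 fl/fl TAM-MG (−0.81, SE 0.60, adjusted p 0.810), and S100b 23.9, 25.6 and 35.5 CPM in Cx3cr1-Rheb1 Δ/Δ TAM-MG, against 46.7 and 44.2 CPM in Rheb1 fl/fl TAM-MG (−0.68, SE 0.39, adjusted p 0.690). Glul, Cd44, S100b and Slc4a4 were lower in all Cx3cr1-Rheb1 Δ/Δ libraries (4 members, background 11.5%), and Aqp4, Ttyh1 and Fabp7 higher in all (3 members, background 14.6%). Aldoc had 62.97, 133 and 100 CPM in Cx3cr1-Rheb1 Δ/Δ TAM-MG, against 57.0 and 221 CPM in Rheb1 fl/fl TAM-MG (−0.49), Gfap 70.9, 38.9 and 29.0 CPM in Cx3cr1-Rheb1 Δ/Δ TAM-MG, against 14.8 and 97.6 CPM in Rheb1 fl/fl TAM-MG (−0.28), and Serpina3n 260, 76.8 and 51.5 CPM in Cx3cr1-Rheb1 Δ/Δ TAM-MG, against 124 and 202 CPM in Rheb1 fl/fl TAM-MG (−0.34). The genotypes overlapped for these 3 genes.

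The remaining members with values in TAM-MG were scarce and uneven from library to library. Slc1a2 had 18.5, 61.7 and 41.4 CPM in Cx3cr1-Rheb1 Δ/Δ TAM-MG, against 0 and 41.6 CPM in Rheb1 fl/fl TAM-MG (log2 fold change 0.97, SE 1.963, adjusted p 0.976 by edgeR's quasi-likelihood test). Aldh1l1 had 1.34, 4.30 and 3.92 CPM in Cx3cr1-Rheb1 Δ/Δ TAM-MG, against 22.4 and 0 CPM in Rheb1 fl/fl TAM-MG (−1.81, SE 2.15, adjusted p 0.929). Gja1 had 9.10, 6.30 and 23.3 CPM in Cx3cr1-Rheb1 Δ/Δ TAM-MG, against 16.4 and 7.44 CPM in Rheb1 fl/fl TAM-MG (0.11, SE 0.91, adjusted p 0.993). These astrocyte markers overlapped between the genotypes, and within the Rheb1 fl/fl genotype a library at 0 stood beside one at 41.6 CPM for Slc1a2 and at 22.4 CPM for Aldh1l1. Nes had 13.2, 4.91 and 17.9 CPM in Cx3cr1-Rheb1 Δ/Δ TAM-MG, against 23.3 and 15.1 CPM in Rheb1 fl/fl TAM-MG (−0.68), Bcan 16.6, 3.65 and 0.41 CPM in Cx3cr1-Rheb1 Δ/Δ TAM-MG, against 5.05 and 18.9 CPM in Rheb1 fl/fl TAM-MG (−0.79), Ncan 1.11, 4.42 and 19.4 CPM in Cx3cr1-Rheb1 Δ/Δ TAM-MG, against 0 and 19.7 CPM in Rheb1 fl/fl TAM-MG (−0.25), and Lcn2 0.45, 1.77 and 2.57 CPM in Cx3cr1-Rheb1 Δ/Δ TAM-MG, against 1.62 and 2.63 CPM in Rheb1 fl/fl TAM-MG (−0.41). The median over the 28 tested members was −0.29, with 10 above 0 (background 53.5%) and 18 below, against a median of 0.08 over all genes, and it was 1.65 without Rheb1 fl/fl replicate 78. Markers of neurons summed to 59.6 to 69.9 CPM in Cx3cr1-Rheb1 Δ/Δ TAM-MG and 36.9 to 75.0 CPM in Rheb1 fl/fl TAM-MG.

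The genotype effect in TAM-MG was set against that in bulk tumours in a fit of all 11 libraries. By the interaction test, 2 members were called, both higher in TAM-MG relative to bulk tumours (background 0.197% higher and 0.0281% lower): Aqp4 (difference of the log2 fold changes 10.90, SE 1.79, adjusted p 0.0470) and Fabp7 (10.49, SE 1.61, adjusted p 0.0456). Both rest on the absence of counts in the 2 Rheb1 fl/fl TAM-MG libraries, so that the size of the difference is no measured fold. Neither was called with upper quartile scaling or with scaling to the same mean log CPM, and neither could be tested when a gene needed 10 counts or more in each library. Their adjusted p values ranged up to 0.151 and 0.142 when a library was left out. Among leave-outs that kept both Rheb1 fl/fl TAM-MG libraries, Aqp4 stayed called only without TAM-MG replicate 63, and Fabp7 only without 54 or 65. For Cd44, the difference of the 2 genotype effects was 0.35 (SE 0.61) and was not called.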

How the data were processed

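Per the labels and the study's methods, SmartSeq2 and Nextera XT were used to make libraries, which were read as 75-base pairs, and the authors deposited raw gene counts from STAR and TPM from Salmon, both on Ensembl GRCm38; tool versions are not given in the sources used here. The deposited bulk TPM list 12719 genes and sum to 617081 to 642370 per library. An unnamed total in the TAM-MG tables (100.0% of the gene sum) was left out of every step. Symbols were matched for 50376 of 50686 genes in GENCODE vM21, also the source of gene positions. SmartSeq2 does not mark strand.

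Counts were filtered with filterByExpr (minimum count 10, total 15), scaled by TMM and tested with edgeR 4.0.16 (quasi-likelihood, R 4.3.3), with Benjamini-Hochberg adjustment over all genes tested. A call needed an adjusted p under 0.05 and 1.5-fold. Bulk tumours and TAM-MG were fitted apart, and interaction and TAM-MG against bulk over all 11 libraries, so CPM of that fit are scaled anew. SE were derived from the F statistic. Alternatives were the likelihood ratio test, DESeq2 1.42.0, other scalings and filters, each library left out, and limma 3.58.1 on log2(TPM + 1), with a minimum TPM of 1 in 2 libraries or without it, and on log2(TPM + 0.1). The main quasi-likelihood fit of each comparison was tested on simulated counts and limma on simulated log values. The other alternatives were not tested in this way. Total counts of 14940787 to 29947977 bound the precision, and bounds cover counting error only. The labels give each library its own number, and p-values measure the spread between these libraries.

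The members and gene lists were chosen with earlier results of these data known. All members are named. Values in every library are given for classical astrocyte markers, reactive, precursor and matrix genes and any member at an unadjusted p under 0.05, and of other lists at most the 2 genes with the smallest p in each direction; values of Dio2, Slc39a12, Sox9 and Glul were added after they were seen.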

Additional observations from a re-analysis of the deposited data

Results flagged for a closer look

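In Aqp4 and Fabp7 the genotype effect differed between TAM-MG and bulk tumours by the interaction test in edgeR. The difference of the log2 fold changes (TAM-MG minus bulk) was 10.90 for Aqp4 (adjusted p 0.0470) and 10.49 for Fabp7 (adjusted p 0.0456). Aqp4 had 203 counts over the 3 Cx3cr1-Rheb1 Δ/Δ TAM-MG libraries and 0 over the 2 Rheb1 fl/fl TAM-MG libraries, and Fabp7 had 93 in Cx3cr1-Rheb1 Δ/Δ and 0 in Rheb1 fl/fl TAM-MG. In bulk tumours both genes were lower in Cx3cr1-Rheb1 Δ/Δ mice (log2 fold changes −1.70 and −2.47). The fitted differences depend on how zero counts are handled and are no measured folds. No group had the 4 samples that a check for outlying libraries needs.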

How the results depend on the processing

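No paired analysis was possible because the genotypes share no replicate numbers. In bulk tumours, the number of members called was 0 by quasi-likelihood under every scaling and without any library, 2 by the likelihood ratio test and by DESeq2, and 1 with no filter on low counts or with 10 counts or more in each library; Fabp7, Cd44 and Aqp4 kept a negative value under every alternative, Dio2 a positive one. The median of the members ranged from −0.37 to 0.31 without each library. In TAM-MG, 1 member was called by the likelihood ratio test and 1 by DESeq2, and the median ranged from −0.32 to 1.65 without each library; with 1 Rheb1 fl/fl library left, its spread is assumed to equal that of the others. The interaction calls were 0 with upper quartile scaling, with the same mean log CPM or with 10 counts or more in each library, and 0 to 4 without each library (median −0.38 to 1.74). In TAM-MG against bulk tumours, 11 members were called and the median was −2.53 when 10 counts or more were required in each library, which fewer members pass, and the median ranged from −6.31 to −3.49 without each library. Scaling to the same mean log CPM moved the median of all genes by 0.12 in bulk tumours (18 members positive, against 14), by −0.42 in TAM-MG (36.6% of genes positive, against 53.5%), by −0.45 in the interaction and by 0.65 in TAM-MG against bulk tumours, where library size alone moved it by −0.54. Depth limits the members of TAM-MG that sit at a few counts.

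None of the sign changes that follow concerns a called value, and the cause was not tested. In bulk tumours, the same mean log CPM gave log2 fold changes of 0.021 for Slc4a4, 0.076 for Ttyh1, 0.092 for Gfap and 0.030 for Serpina3n. There, limma on log2(TPM + 1), with or without a filter, gave 0.38 for Slc39a12, 0.28 for Ttyh1, −0.51 for Ntsr2 and −0.16 for Bcan, and log2(TPM + 0.1) gave 0.95, 0.27, −0.52 and −0.17. In TAM-MG, the same mean log CPM gave −0.11 for Slc1a3 and −0.31 for Gja1, log2(TPM + 1), with or without a filter, 0.16 for Gfap, 0.043 for Sox9, 0.11 for Agt and 0.081 for Ncan, and log2(TPM + 0.1) 0.40 for Gjb6, 0.33 for Aldh1l1, 0.19 for Gfap, 0.61 for Sox9, 0.47 for Agt and 0.67 for Ncan. In the interaction, Lcn2 had −0.058 by DESeq2, −0.13 with upper quartile scaling and −0.27 with the same mean log CPM, which gave −0.11 for Cd44.

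Leaving out each library in turn changed the sign of these members, given with their lowest and highest log2 fold change. In bulk tumours they were Slc1a2 (−0.44 to 0.29), Slc1a3 (−0.61 to 0.20), Slc4a4 (−0.41 to 0.35), Slc6a11 (−0.78 to 0.22), Slc7a10 (−0.081 to 4.02), Atp1b2 (−0.51 to 0.12), Mlc1 (−0.58 to 0.27), Ttyh1 (−0.41 to 0.33), Cldn10 (−0.65 to 0.92), Glul (−0.20 to 0.80), Gfap (−0.49 to 0.35), S100b (−0.28 to 0.31), Sox9 (−0.47 to 0.40), Ntsr2 (−0.77 to 0.70), Serpina3n (−0.34 to 0.14) and Lcn2 (−2.03 to 0.53). In TAM-MG they were Slc1a2 (−0.025 to 13.06), Mlc1 (−1.35 to 9.33), Gja1 (−0.64 to 0.81), Gjb6 (−1.11 to 9.43), Aldh1l1 (−2.80 to 9.20), Aldoc (−1.15 to 0.81), Acsbg1 (−0.35 to 7.53), Gfap (−1.06 to 1.65), Sox9 (−1.73 to 8.35), Ntsr2 (−0.83 to 1.21), Agt (−1.31 to 7.55), Bcan (−2.56 to 0.46), Ncan (−1.84 to 10.78), Serpina3n (−1.34 to 0.065) and Lcn2 (−0.94 to 0.034). In the interaction they were Mlc1 (−6.18 to 9.44), Gjb6 (−1.98 to 8.48), Cldn10 (−4.86 to 7.02), Aldh1l1 (−3.08 to 8.86), Aldoc (−1.56 to 0.48), Acsbg1 (−1.06 to 6.80), Dio2 (−1.24 to 7.17), Gfap (−1.03 to 1.76), Sox9 (−1.54 to 8.41), Ntsr2 (−1.005 to 0.96), Agt (−2.46 to 6.70), Bcan (−2.73 to 0.29), Ncan (−1.10 to 11.38), Cd44 (−0.026 to 0.75), Serpina3n (−1.18 to 0.24) and Lcn2 (−0.98 to 1.65). Fitted values of 4 and more rest on a group at or near 0 counts and are no measured folds.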
